A study of Mus musculus with 3 samples.

Results

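The AP-1 and immediate early genes described here are Fos, Fosb, Fosl1, Fosl2, Jun, Junb, Jund, Egr1, Atf3 and Myc, which are 10 of the 21782 genes in the RNA-seq count table. They were chosen by name as the Fos, Jun and other early response genes, and every one of them was found in the table under its own symbol. The table comes from 3 libraries of polyA-selected RNA from wild type (WT) mouse embryo fibroblasts (MEFs), primary cells isolated at embryonic day 12.5 and grown in DMEM with 20% FBS. Each library comes from 1 clone of asynchronously growing cells. All libraries are of the same genotype and the same culture condition, with no starved or restimulated cells among them, so the comparisons below are between clones and between genes and never between conditions. Since each clone has 1 library, a clone, its culture and its library cannot be told apart.

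AP-1 is a dimeric transcription factor made of basic leucine zipper proteins. Jun proteins pair with one another or with Fos proteins, whereas Fos proteins need a Jun partner, and the dimers bind the AP-1 site and the related cAMP response element (CRE). Fos, Fosb, Jun, Junb and Egr1 are textbook immediate early genes: serum and growth factors switch them on within minutes, without new protein synthesis, and their transcripts are short-lived. Fosl1 and Fosl2 follow later and last longer in cells kept in serum, and Jund is the most constantly expressed Jun gene. Egr1 encodes a zinc finger factor, Atf3 a stress-inducible member of the ATF/CREB family that also pairs with Jun proteins, and Myc a growth regulator that acts as a dimer with Max.

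The promoter sequences of Fos, Junb and Jun are shown because these genes, all of them early response genes, did not go the same way between the clones. RefSeq windows (GRCm38.p6) were found for 7 of the 10 genes, and the 250 bases before the start site, which carry no annotated transcript, are printed for the 3 genes in lower case from 5′ to 3′. Capitals mark the CRE half-site TGACG, the CRE-like element TGACNTCA and the TATA box TATAAA on either strand. Fos lies on the plus strand and its bases are chr12:85473640-85473889. Junb and Jun lie on the minus strand, and their bases are chr8:84978749-84978998 and chr4:95052223-95052472.
Fos: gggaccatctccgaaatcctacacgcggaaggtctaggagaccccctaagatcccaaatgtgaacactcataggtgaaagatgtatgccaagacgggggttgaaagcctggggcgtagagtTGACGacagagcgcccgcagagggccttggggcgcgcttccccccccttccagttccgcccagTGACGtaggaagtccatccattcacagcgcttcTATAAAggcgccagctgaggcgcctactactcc
Junb: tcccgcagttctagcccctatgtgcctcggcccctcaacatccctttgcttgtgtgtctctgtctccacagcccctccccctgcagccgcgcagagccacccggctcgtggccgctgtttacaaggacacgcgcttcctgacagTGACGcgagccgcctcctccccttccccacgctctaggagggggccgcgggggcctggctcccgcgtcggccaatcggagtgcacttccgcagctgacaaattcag
Jun: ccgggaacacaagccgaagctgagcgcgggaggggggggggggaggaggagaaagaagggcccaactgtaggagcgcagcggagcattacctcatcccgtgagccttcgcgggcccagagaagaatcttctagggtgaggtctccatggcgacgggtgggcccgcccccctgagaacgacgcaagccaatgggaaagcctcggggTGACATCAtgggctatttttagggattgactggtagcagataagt

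Position 0 being the annotated start site, Fos carried the CRE half-site at -129 and at -66 and the TATA box at -33. Junb carried 1 half-site, at -106, and Jun carried the element TGACATCA at -45. Among the 300-base windows that end 50 bases after the start site, the half-site was in 4 of the 7 windows of these genes (Atf3, Fos, Fosb and Junb) and in 20.8% of all 32851 windows. The CRE-like element was in 1 of the 7 (Jun) and in 8.83% of all windows. It takes in the full CRE, TGACGTCA, which was in none of the 7 and in 1.79% of all windows and which itself holds the half-site. The TATA box was in 2 of the 7 (Fos and Junb, the latter at the start site itself) against 13.6%, the EGR site GCGNGGGCG in 2 (Fosb and Fosl2) against 5.55%, and CCAAT in 3 (Atf3, Jun and Junb) against 37.4%. The AP-1 site TGANTCA, found in 7.81% of all windows, and the CArG box of serum response factor, found in 1.63%, had no match in these 7 windows, which says nothing about sites outside them. The Jund window is placed at the RefSeq start site, after bases 70697489 to 70697738 of chromosome 8. The GENCODE model of Jund starts at 70698949, so this window does not cover that start.

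Total counts per library were 22594316 to 25261357, and 1 count corresponds to 0.0396 to 0.0443 CPM (counts of a gene per 1000000 counts, with library sizes scaled by TMM). Of the fibroblast markers, 8 of 8 reached 1 CPM in all clones, with a summed level of 45747 to 56790 CPM. Epcam and Cdh1, which define epithelium, stayed at 5 counts or fewer in every clone, and of 6 epithelial and 4 endothelial markers only Krt18 and Kdr reached 1 CPM throughout. The clones were unequal in other respects. All 11 macrophage markers were highest in clone 2, with a summed level of 398, 1871 and 330 CPM in clones 1, 2 and 3 and none at 0. All 6 proliferation genes were lowest in clone 1, at 368, 723 and 609 CPM in sum, and all 3 arrest genes (Cdkn1a, Cdkn2a and Cdkn2b) were highest in clone 1, at 587, 411 and 464 CPM in sum.

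Every one of the 10 genes was expressed above 1 CPM in every clone. Their counts ran from 190 (Atf3 in clone 3) to 7297 (Egr1 in clone 1), and their summed level was 1290, 1012 and 994 CPM in clones 1, 2 and 3. Levels of different genes were compared per kb of annotated exon (GENCODE M21). On this scale Junb was the highest at 78.4 ± 21.2 CPM per kb (SD, n = 3 clones), followed by Egr1 (54.1 ± 10.7), Jund (53.4 ± 7.54), Jun (40.2 ± 7.16), Fos (37.4 ± 19.2), Myc (31.2 ± 4.26), Fosl2 (18.6 ± 1.79), Fosl1 (16.1 ± 4.07), Fosb (10.02 ± 7.49) and Atf3 (4.82 ± 1.72). The median of 11343 expressed genes was 5.46 CPM per kb, and 9 of the 10 genes, all but Atf3, were above it. Junb was above 95.6% of the expressed genes.

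The order is loose, since most neighbours in it overlapped between clones. Of the 9 neighbouring pairs, only Myc and Fosl2 had ranges that did not overlap: the lowest Myc value was 27.9 CPM per kb and the highest Fosl2 value 20.5. Within each clone, Junb was nevertheless above Egr1, Fosl2 above Fosl1 and Fosb above Atf3 in 3 of 3 clones. With the transcript of the longest coding sequence as the length, 4 pairs did not overlap and Fos (41.7) came before Jun (40.2). The place of Jund depends on where its transcript starts. The GENCODE model has 1668 bp and the RefSeq model, which begins further upstream, 2878 bp, and on the latter Jund averaged 31.0 CPM per kb, below Jun, Fos and Myc.

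**Figure D1:**
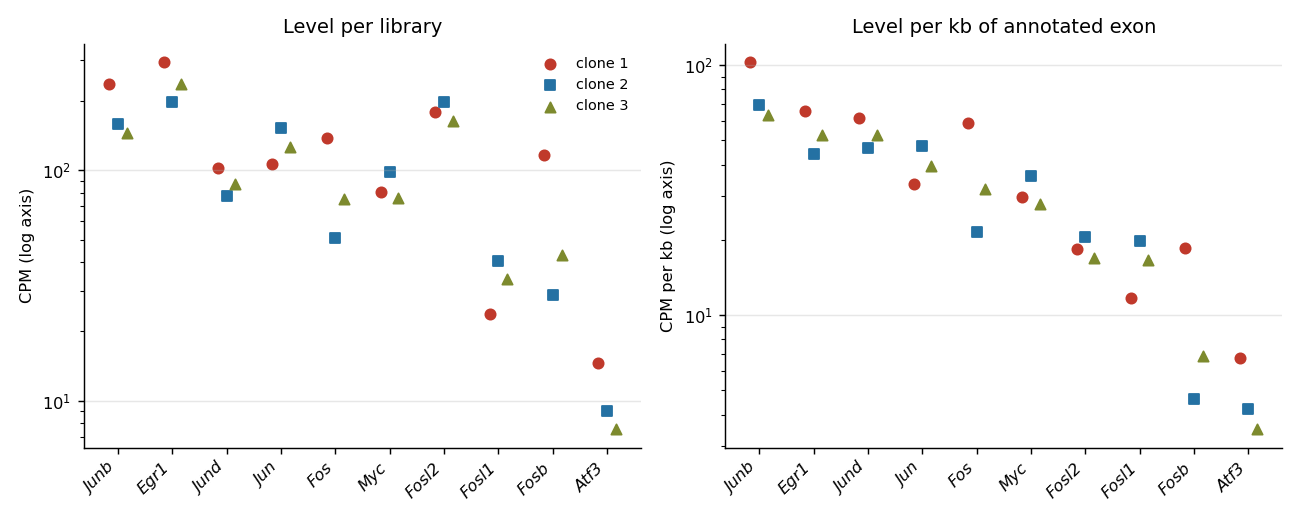
Level of each gene in the 3 WT MEF clones, in CPM (left, log axis) and in CPM per kb of annotated exon (right, log axis), 1 point per clone, with genes ordered by mean CPM per kb. Fosb and Fos have the widest spread, with clone 1 at the top, while Fosl2 lies between 16.9 and 20.5 CPM per kb.

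The Fos family divided into genes that were highest in clone 1 and genes that were highest in clone 2. Fos, the founding member of the family (chromosome 12, 85473890 to 85477273, plus strand, GRCm38, 4 exons), had 3432, 1141 and 1897 counts in clones 1, 2 and 3. In CPM these are 138, 50.6 and 75.1, with a mean of 87.9 ± 45.2 (SD, n = 3). Clone 1 was 2.73-fold above clone 2 and 1.84-fold above clone 3. Fosb (chromosome 7, 19302696 to 19310051, minus strand, 4 exons) encodes a close relative of Fos that is likewise induced early. It had 2881, 651 and 1083 counts, or 116, 28.9 and 42.9 CPM (62.6 ± 46.8, SD, n = 3), and clone 1 was 4.02-fold above clone 2 and 2.70-fold above clone 3. Both genes thus had the same order of clones, 1 above 3 above 2. The range of Fosb was 1.97 on the log2(CPM + 1) scale, wider than that of 99.3% of the 12218 genes tested, and that of Fos was 1.43, wider than 98.3%.

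Fosl1, whose product FRA1 lacks the strong activation domain of FOS (chromosome 19, 5447547 to 5455946, plus strand, 4 exons), went the other way. Its counts were 592, 908 and 854 in clones 1, 2 and 3, or 23.8, 40.3 and 33.8 CPM (32.6 ± 8.28, SD, n = 3), so that clone 1 was the lowest. Of the Fosl1 exon bases, 57.2% overlap exons of Ccdc85b on the opposite strand, and 56.0% of the 86-nt stretches of its transcript also occur in a Ccdc85b transcript. The strand setting of the counting is not given in the sources used here, so reads of this stretch may be missing from Fosl1 or belong to Ccdc85b, which had 923, 693 and 894 counts. Fosl2, which encodes FRA2 (chromosome 5, 32135801 to 32157842, plus strand, 4 exons), had 4426, 4473 and 4139 counts, or 178, 198 and 164 CPM (180 ± 17.3, SD, n = 3). It was the steadiest of the 10 genes, with the highest clone 1.21-fold above the lowest.

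With Fos and Fosb highest in clone 1, Fosl1 lowest there and Fosl2 nearly level, the make-up of the family changed from clone to clone. Per kb, Fos and Fosb together took 72.0%, 39.3% and 53.6% of the Fos family in clones 1, 2 and 3, and Fosl1 and Fosl2 together took the other 28.0%, 60.7% and 46.4% (45.03% ± 16.4, SD, n = 3). In raw counts, the share of Fos and Fosb was 55.7% (95% Wilson interval 54.8 to 56.6) for clone 1, 24.98% (23.99 to 25.998) for clone 2 and 37.4% (36.3 to 38.4) for clone 3. The intervals do not overlap, and they cover counting error only, as reads without molecular identifiers are not independent molecules. Fos had 5.80, 1.26 and 2.22 times the counts of Fosl1 in these clones.

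In the Jun family, Junb and Jund were highest in clone 1 and Jun was lowest there. Junb (chromosome 8, 84974484 to 84978718, minus strand), which encodes a weaker activator that can oppose JUN, had 5865, 3593 and 3681 counts in clones 1, 2 and 3. In CPM these are 236, 159 and 146 (180 ± 48.7, SD, n = 3). Clone 1 stood apart, 1.48-fold above clone 2 and 1.62-fold above clone 3. Exons of Prdx2 on the opposite strand overlap 7.52% of its exon bases. Jund (chromosome 8, 70698949 to 70700616, plus strand) had 2545, 1746 and 2209 counts, or 102, 77.4 and 87.5 CPM (89.1 ± 12.6, SD, n = 3). The order of clones was that of Fos, but clone 1 was 1.32-fold above clone 2. Over 52.6% of the Jund exon bases lies Gm11175, an antisense gene that was not analysed here.

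Jun (chromosome 4, 95049034 to 95052222, minus strand) encodes the strongest activator of the family. Its counts in clones 1, 2 and 3 were 2643, 3425 and 3184, or 106, 152 and 126 CPM (128 ± 22.8, SD, n = 3), the same order of clones as Fosl1. The antisense gene Junos overlaps 7.28% of its exon bases. Per kb, Jun took 16.9% of the Jun family in clone 1 and 29.2% and 25.5% in clones 2 and 3, whereas Junb took 52.0%, 42.4% and 40.8%. Jund took 31.1%, 28.4% and 33.8% (31.1% ± 2.67, SD, n = 3), a mean share that falls to 18.4% where the RefSeq lengths of all 3 Jun genes are used. Summed per kb, the Jun family stood at 197, 163 and 155 CPM per kb and the Fos family at 107, 66.4 and 72.4. The Fos family thus had 0.544, 0.407 and 0.466 of the Jun family's level in clones 1, 2 and 3, and was below it in every clone.

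**Figure D2:**
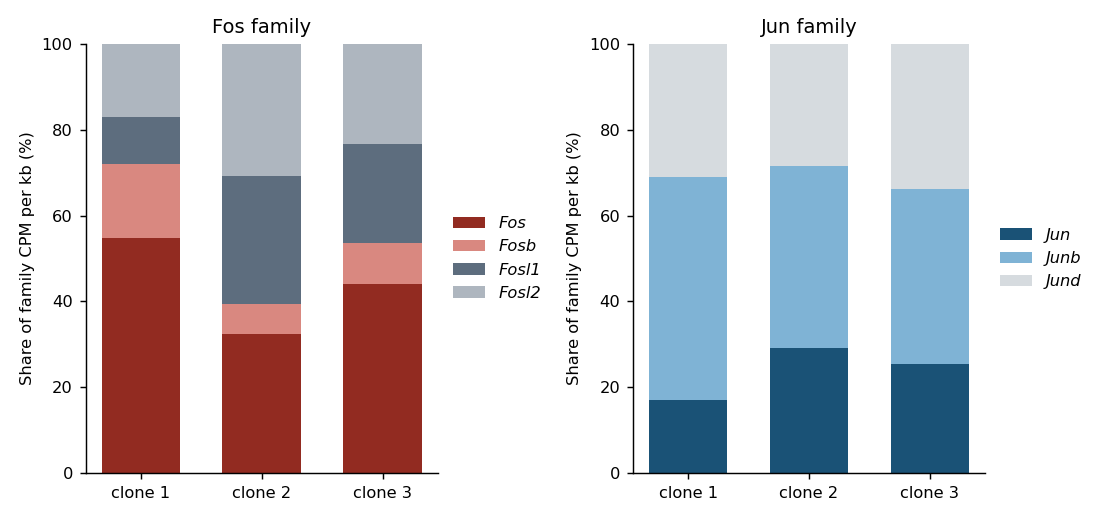
Share of each gene in the summed CPM per kb of annotated exon of the Fos family (left) and the Jun family (right), in percent, 1 stacked bar per WT MEF clone. Fos and Fosb make up 72.0% of the Fos family in clone 1 and 39.3% in clone 2, and Jun takes its smallest share, 16.9%, in clone 1.

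Egr1 and Atf3 were highest in clone 1 and Myc in clone 2. Egr1 (chromosome 18, 34859823 to 34864984, plus strand, 2 exons) had 7297, 4478 and 5959 counts in clones 1, 2 and 3, or 294, 199 and 236 CPM (243 ± 47.9, SD, n = 3). Its order of clones was that of Fos, with clone 1 1.48-fold above clone 2. Atf3 (chromosome 1, 191170296 to 191218039, minus strand, 4 exons) was the least abundant of the 10 genes, with 362, 204 and 190 counts, or 14.6, 9.05 and 7.52 CPM (10.4 ± 3.71, SD, n = 3). Clone 1 was 1.61-fold above clone 2 and 1.93-fold above clone 3, and clones 2 and 3 did not pass the test (adjusted p = 0.155 by the chi-square test described next). Myc (chromosome 15, 61985391 to 61990374, plus strand, 3 exons) had 2008, 2209 and 1917 counts, or 80.8, 98.0 and 75.9 CPM (84.9 ± 11.6, SD, n = 3). Clone 2 was 1.29-fold above clone 3, and clones 1 and 3 did not pass the test (adjusted p = 0.107).

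To ask whether these differences exceed counting noise, the counts of each gene were set against the scaled library sizes by a Pearson chi-square test, with Benjamini-Hochberg adjustment over all genes tested. All 10 genes were called as differing between the libraries, the highest adjusted p being 3.56e-14 for Atf3. The background is high, since 62.5% of the 12218 genes tested were called, and 71.8% of the 8390 genes that averaged 10 CPM or more, the range in which all 10 genes lie. Of the 10 genes, 6 were called and highest in clone 1 (Fos, Fosb, Junb, Jund, Egr1 and Atf3), against 23.8% of all genes tested. Another 4 were called and highest in clone 2 (Fosl1, Fosl2, Jun and Myc), against 23.5%, and 0 in clone 3, against 15.3%. Highest in clone 1 and lowest in clone 2 were 4 of 10 (Fos, Fosb, Jund and Egr1), against 15.9%. Only Fos and Fosb, 2 of 10, were called with the top clone at least 2-fold above the bottom one, against 7.93% of all genes. In both, clone 1 was the top, against 2.46%.

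In size rather than in calls, the 10 genes spread more than most. The median of their coefficients of variation between clones was 22.6%, beside 11.3% over all genes tested, and 9 of 10, all but Fosl2, had a wider range than the median gene. Without clone 1 both medians fell, to 13.1% for the 10 genes and 6.91% for all genes, and none of the 10 genes differed 2-fold, although 9 of them were still called between clones 2 and 3, against 31.7% of genes. The macrophage markers were expressed in every clone and highest in clone 2. Without clone 2, 7 of 10 were called as higher in clone 1 than in clone 3, against 21.2% of genes. Another 2, Fosl1 and Jun, were called as higher in clone 3, against 24.2%. Fosb was then the only one past 2-fold. The shares for pairs of clones and for the highest clone are over genes of all levels and are not matched to the 10 genes. In the test of all 3 clones, 62.5% of all genes were called and 71.8% of those averaging 10 CPM or more. Both Fos and Fosb followed the arrest genes and ran against the proliferation genes across the clones, and the part of cell cycle state or of macrophages in any of these differences was not tested.

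**Figure D3:**
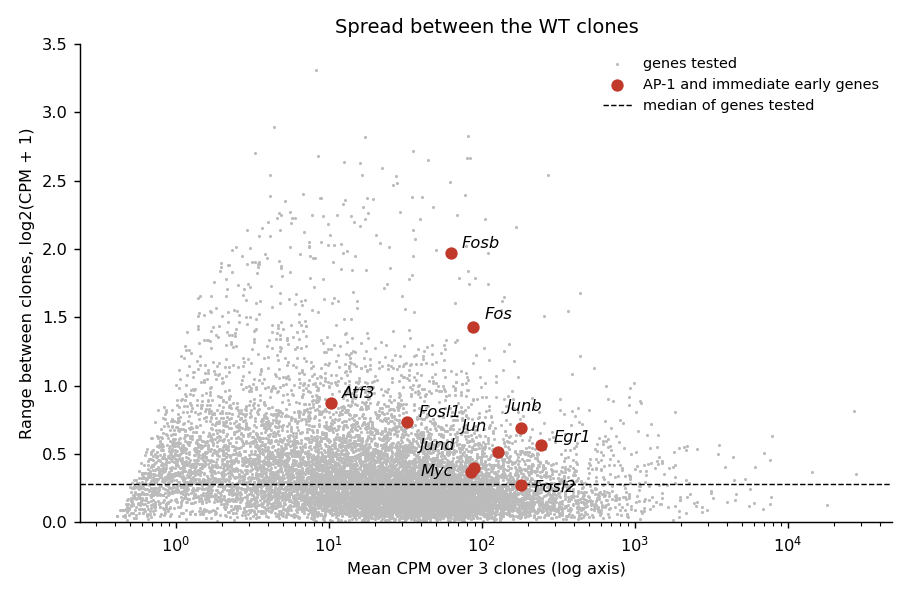
Range between the 3 WT MEF clones, as the highest minus the lowest log2(CPM + 1), against mean CPM (log axis), for the 12218 genes tested (grey) and the 10 AP-1 and immediate early genes (red), with a dashed line at the median of all genes tested. Fosb (1.97) and Fos (1.43) lie far above the median of 0.278, and Fosl2 lies on it.

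The other genes listed here as immediate early genes did not share 1 order of clones. Of 50 such genes, 47 reached 1 CPM in all clones and 49 were tested. Of these, 45 were called, beside 62.5% of all genes tested. Called and highest in clone 1 were 21, in clone 2 20 and in clone 3 4, beside 23.8%, 23.5% and 15.3% of all genes tested. Their median coefficient of variation was 17.1%, beside 11.3% over all genes tested. Called with a 2-fold difference were 4 of the 49, close to the 7.93% of all genes tested. Of these 4, the 3 genes of widest range above 10 CPM were highest in clone 1, beside 2.46% of all genes tested. Nr4a1, an orphan nuclear receptor gene, had 197, 75.1 and 58.0 CPM in clones 1, 2 and 3, and its paralog Nr4a2 16.7, 6.34 and 7.92 CPM. Gadd45a, a stress and DNA damage gene, had 29.5, 12.3 and 13.7 CPM. The fourth, Arc, was highest in clone 3 at 8.12 CPM and is named after its values were seen. Clone 1 was thus above both others for Nr4a1 and Nr4a2 as for Fos and Fosb, but not for the list as a whole. Their paralog Nr4a3, which is named after its values were seen, had 1.41, 0.710 and 0.950 CPM and was not called. The most abundant genes of the list were the matricellular genes Ctgf and Cyr61 and the prostaglandin synthase gene Ptgs2. Ctgf had 6201, 5630 and 5244 CPM and Cyr61 2088, 2552 and 2097 CPM, within 1.18-fold and 1.22-fold between clones. Ptgs2, with 646, 1067 and 795 CPM, was highest in clone 2.

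**Figure D4:**
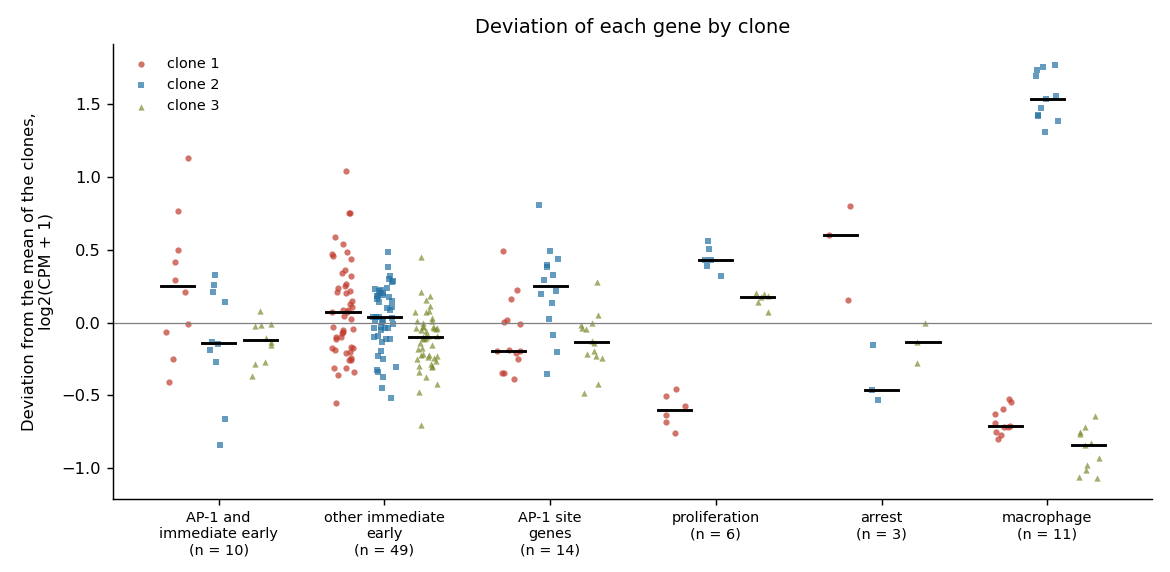
Deviation of each tested gene from its mean over the 3 WT MEF clones, on the log2(CPM + 1) scale, for the AP-1 and immediate early genes and for lists of related and marker genes, 1 point per gene and clone, with a bar at the median. In clone 1 the median is 0.25 for the 10 genes, 0.07 for the other immediate early genes, -0.60 for proliferation and 0.60 for arrest genes, and in clone 2 it is 1.54 for the macrophage markers.

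Of 18 basic leucine zipper genes whose products pair with or compete with AP-1, 13 were tested. Beside 62.5% of all genes tested, 8 of these 13 were called. The most abundant were Atf4, which drives the amino acid and ER stress response, at 244 ± 32.3 CPM, Jdp2, a repressive partner of Jun, at 50.5 ± 1.74 CPM and Mafk, a small Maf partner, at 49.1 ± 10.9 CPM (SD, n = 3). Jdp2 did not pass the test, with 50.4, 48.8 and 52.3 CPM in the 3 clones. Mafk, at 61.2, 46.2 and 39.9 CPM, had the widest range among members above 10 CPM and was highest in clone 1, whereas Cebpb ranged 1.40-fold and Creb1 1.35-fold. Maf, which is also expressed in macrophages and is named after its values were seen, was called with a difference of more than 2-fold. It was highest in clone 2, like the macrophage markers, with 4.11, 9.89 and 5.07 CPM. The other 5 genes had too few counts to be tested.

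The factors and kinases that act upstream of the early genes had a median coefficient of variation of 9.20%. Of 20 genes, 19 were tested and 17 were called, beside 62.5% of all genes tested. Called with a 2-fold difference were 0 of the 19, beside 7.93% of all genes tested. Elk3, a ternary complex factor, had 139 ± 6.70 CPM and Srf, the serum response factor gene, 127 ± 19.2 CPM (SD, n = 3). Srf had 105 CPM in clone 1, 141 in clone 2 and 134 in clone 3, so that clone 1, where Fos and Egr1 were highest, had the least. Among the genes with the widest ranges above 10 CPM, Rps6ka1 differed 1.499-fold and Mef2a 1.28-fold. The Egr corepressor genes Nab1 and Nab2 stood at 31.2 ± 4.58 and 90.5 ± 3.04 CPM, and of the pair only Nab1 was called.

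Of 11 genes of the network around Myc, 10 were found in the table and tested. Of these 10, 3 were called, beside 62.5% of all genes tested. The median coefficient of variation of the 10 was 11.5%. Max, the obligate partner of Myc, had 43.6 ± 1.70 CPM, Mga 49.7 ± 1.05 and Mlxip 38.5 ± 1.80 (SD, n = 3), and none of the 3 was called. The repressive partner gene Mnt had 47.7, 34.4 and 33.2 CPM and Mxd4 24.2, 20.3 and 19.0 CPM, both called and highest in clone 1. The third called gene, Mxd3, which is named after its values were seen, had 4.19, 7.72 and 4.99 CPM and was highest in clone 2, as Myc was. Mxi1, at 10.1 ± 1.02 CPM, was not called.

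Genes with well known AP-1 sites were mostly highest in clone 2, as Jun and Fosl1 were. Of 14 such genes, 14 were tested and 12 called, beside 62.5% of all genes tested. Called and highest in clone 2 were 10 of the 14, beside 23.5% of all genes tested. Spp1, the osteopontin gene, had 1997, 2237 and 1278 CPM, the hyaluronan receptor gene Cd44 928, 1445 and 1223 CPM, Timp1, a metalloproteinase inhibitor gene, 519, 868 and 519 CPM, and the urokinase receptor gene Plaur 196, 325 and 243 CPM. The other 2 called genes, Il6 with 4.31, 1.95 and 2.42 CPM and Lif with 75.1, 55.7 and 63.3 CPM, were highest in clone 1 and lowest in clone 2, as Fos was, and are named after their values were seen. The macrophage markers were highest in clone 2 as well, and macrophages are known to express Spp1, Cd44 and Plaur, but their part in these levels was not tested. In bulk RNA, more cells of a type and more RNA per cell cannot be told apart.

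Early response transcripts are known for AU-rich elements in the 3' UTR, which bring about their decay. At least 1 ATTTA pentamer was found in the 3' UTR of 10 of the 10 genes, beside 67.6% of 11039 expressed coding genes. At least 3 pentamers were found in 4 of the 10, beside 36.2% of expressed coding genes. The 10 genes carried a median of 2 pentamers, or 2.20 per kb of 3' UTR. The median over expressed coding genes was 1, or 1.28 per kb. Fos had 4 in 815 nt and Myc 2 in 442 nt, and Fosb had 1 in 2145 nt. The nonamer ATTTATTTA was found in Fos only, and in 5.94% of expressed coding genes. These counts describe letters and not sites shown to act. Of 6 genes for proteins that bind such elements, all tested, 5 were called, beside 62.5% of all genes tested. Called and lowest in clone 1 were 4 of the 6, beside 27.1% of all genes tested. These 4 were Khsrp with 141 ± 11.1 CPM, Zfp36l2 with 134 ± 19.6, Hnrnpd with 104 ± 19.9 and Elavl1 with 73.3 ± 10.4 (SD, n = 3). The other called gene, Zfp36, went the other way, with 88.1, 69.2 and 71.6 CPM in clones 1, 2 and 3. Zfp36l1, with 41.5, 41.3 and 41.3 CPM, was not called. Both are named after their values were seen. The part of these proteins in the levels of the 10 genes was not tested.

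The 10 genes are also short. Their median span in the genome was 5073 bp against 25218 bp for expressed coding genes. In the transcript with the longest coding sequence they had a median of 3.5 exons against 9, and Jun, Junb and Jund have 1 exon, as do 1.91% of expressed coding genes. Apart from Fosl1, Jund and Jun (4.74% of 86-nt stretches shared with Junos), no 86-nt stretch of the 10 transcripts occurred exactly in a transcript of another gene and none was shared among the Fos or Jun paralogs.

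Among the 8389 other genes averaging 10 CPM or more, the 5 whose deviations over the 3 clones were nearest to those of Fosb, the member with the widest range, were Cd200, Itga11, Myom1, Fos and Cdkn2a. Their root mean square difference from Fosb ran from 0.195 for Cd200 to 0.261 for Cdkn2a on the log2 scale. Itga11, a collagen-binding integrin gene, had 14626, 4537 and 7924 counts in clones 1, 2 and 3, and Cdkn2a, which encodes the arrest proteins p16 and p19, had 2349, 834 and 1118. Fos ranked 4, whereas the next members of the group, Atf3 and Junb, ranked 182 and 229, and Jun and Fosl1 ranked 7682 and 8069. A likeness over 3 clones has few degrees of freedom, and these ranks are descriptions with no test.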

How the data were processed

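RNA-seq of 3 WT MEF clones was analysed, 1 library per clone. Per the methods of the study, single-end reads of 86 nt went through TopHat (2.0.0) with Bowtie (0.12.7), with up to 2 mismatches and 5 hits per read, then SAMtools (0.1.16), and HTSeq assigned them to genes. The authors deposited unnormalized counts for each gene symbol. The methods name mm10, whereas the submitters' processing notes name mm9. The counts carry no coordinates, and positions and lengths here are those of GENCODE M21 on GRCm38 (99.7% of listed genes matched). The HTSeq version, gene annotation and strand setting are not given in the sources used here.

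CPM were computed with TMM factors of edgeR 4.0.16 (R 4.3.3). Genes that had 10 or more counts in each library were tested with a Pearson chi-square test (2 degrees of freedom) and called at a Benjamini-Hochberg adjusted p under 0.05. The test compares libraries with counting noise and is no test of a condition. For pairs of clones, it was repeated on 2 libraries. Genes reaching 1 CPM in all clones were taken as expressed. The genes, lists and alternatives were chosen with earlier results of these data known. Besides the 10 genes, the 3 highest and the 3 widest-ranging genes, averaging 10 CPM or more, of each list of related genes are named, with the 5 nearest in pattern to the member of widest range among those with at least 100 counts in every clone. The lists were other immediate early, partner, upstream, corepressor, Myc network, AP-1 site, AU-rich element binding and marker genes. One gene that this rule names is not reported here. Of the marker lists only those genes a result touches are named. Promoter windows are from RefSeq. The procedure was tested on simulated data. Alternatives were DESeq2 1.42.0 size factors, total counts, other thresholds, other lengths, another pseudocount and leaving out each clone. The tests were run in Python 3.11.15 (scipy 1.17.1, pandas 2.3.3, numpy 2.4.6).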

Additional observations from a re-analysis of the deposited data

How the results depend on the processing

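No paired analysis was possible because the libraries form 1 group. The count of members called as differing stayed at 9 or 10 and that of expressed members at 10 under every alternative run. With DESeq2 size factors or total counts the numbers called, highest in clone 1 and past 2-fold were those given above. Leaving out each clone in turn, the members past 2-fold ranged from 0 (without clone 1) through 1 (without clone 2) to 2, and the other immediate early genes past 2-fold from 0 (without clone 1) to 4. The median coefficient of variation of the members ranged from 13.1% (without clone 1) to 27.4% (without clone 3). The number of neighbouring pairs in the order of levels that did not overlap was 4 with the transcript of the longest coding sequence as the length and 2 with RefSeq lengths of the Jun genes. The RefSeq lengths and the counts of members highest in clone 1 and of members and other immediate early genes past 2-fold were added after seeing the data. The Jund share of the Jun family was 27.7% with the transcript of the longest coding sequence, 18.4% with RefSeq lengths and 22.4% in counts. The other alternatives moved no value by more than the spread between clones. The design has no groups to compare, and 3 clones cannot go below p = 0.25 in a two-sided exact sign-flip test.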
